A study of Homo sapiens with 6 samples.

Results

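The genes described here are 41 antiviral interferon-stimulated genes, of 57290 genes in the files. They were chosen by symbol: the values of every annotated transcript carrying one of the 41 names were summed per gene, and all 41 names were found. The members comprise 4 sensors of foreign nucleic acid, 3 transcription factors of the interferon response, and 34 effectors and other interferon-induced proteins. They were measured in the established human line KMM1, which derives from multiple myeloma, a cancer of plasma cells. In 3 libraries the cells had received a lentivirus carrying TAZ, a transcriptional co-activator of the Hippo pathway whose gene is WWTR1. In the 3 control libraries the cells had received the empty vector, named WPI. Both groups were thus exposed to lentiviral particles, and polyadenylated RNA of both was taken 4 days after the virus was added. No untransduced cells were compared here, and 1 cell line was used.

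Interferon-stimulated genes are a cell's main defence against viruses. Type I and type III interferons activate the kinases JAK1 and TYK2 and so the complex ISGF3, which contains STAT2 and IRF9 and binds the interferon-stimulated response element. Interferon gamma acts through JAK1 and JAK2 on genes that hold the gamma-activated site. The products detect viral RNA and DNA, block entry, degrade RNA, halt translation and modify proteins, and many are kept at a low level in cells at rest.

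Promoters of the members were read in RefSeq's GRCh38.p14, in a window from 250 bases before to 50 after each annotated start, for the 32 members with an entry. The response element was searched as GAAA, any pair of bases, GAAA, and the gamma-activated site as TTCNNNGAA, on both strands. Of the 32 members, 21 (65.6%) held the response element motif, against 4.38% of all 27305 genes with a promoter and 3.57% of 35116 promoters. The gamma-activated site motif was in 9 of 32 members, against 9.38% of genes and 7.66% of promoters. The 6 stretches below belong to the members with the smallest adjusted p among those that rose with TAZ and hold the response element motif. Each is printed 5′ to 3′ on the strand of the gene, from 10 bases before the first match to 10 after the last, with matched bases in capitals.
PARP9, chr3:122564322-122564351, minus strand: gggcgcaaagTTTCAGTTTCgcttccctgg
DTX3L, chr3:122564322-122564351, plus strand: ccagggaagcGAAACTGAAActttgcgccc
IFI27, chr14:94110618-94110660, plus strand: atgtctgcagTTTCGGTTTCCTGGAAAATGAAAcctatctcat
IFITM1, chr11:313990-314053, plus strand: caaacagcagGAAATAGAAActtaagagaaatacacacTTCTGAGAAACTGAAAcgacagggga
IFI6, chr1:27672266-27672358, minus strand: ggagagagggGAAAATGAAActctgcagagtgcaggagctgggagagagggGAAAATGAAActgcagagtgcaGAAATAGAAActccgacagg
PARP14, chr3:122680789-122680829, plus strand: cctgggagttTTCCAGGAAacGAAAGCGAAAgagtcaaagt
The PARP9 and DTX3L stretches are the same bases read from opposite strands, since these genes start head to head. IFI6 holds 3 matches of the response element motif, of which 2 are identical in sequence. In IFI27 and IFITM1 a gamma-activated site match overlaps a response element match, and in PARP14 the pair lies side by side. A match describes the letters and is not evidence of binding.

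**Figure D1:**
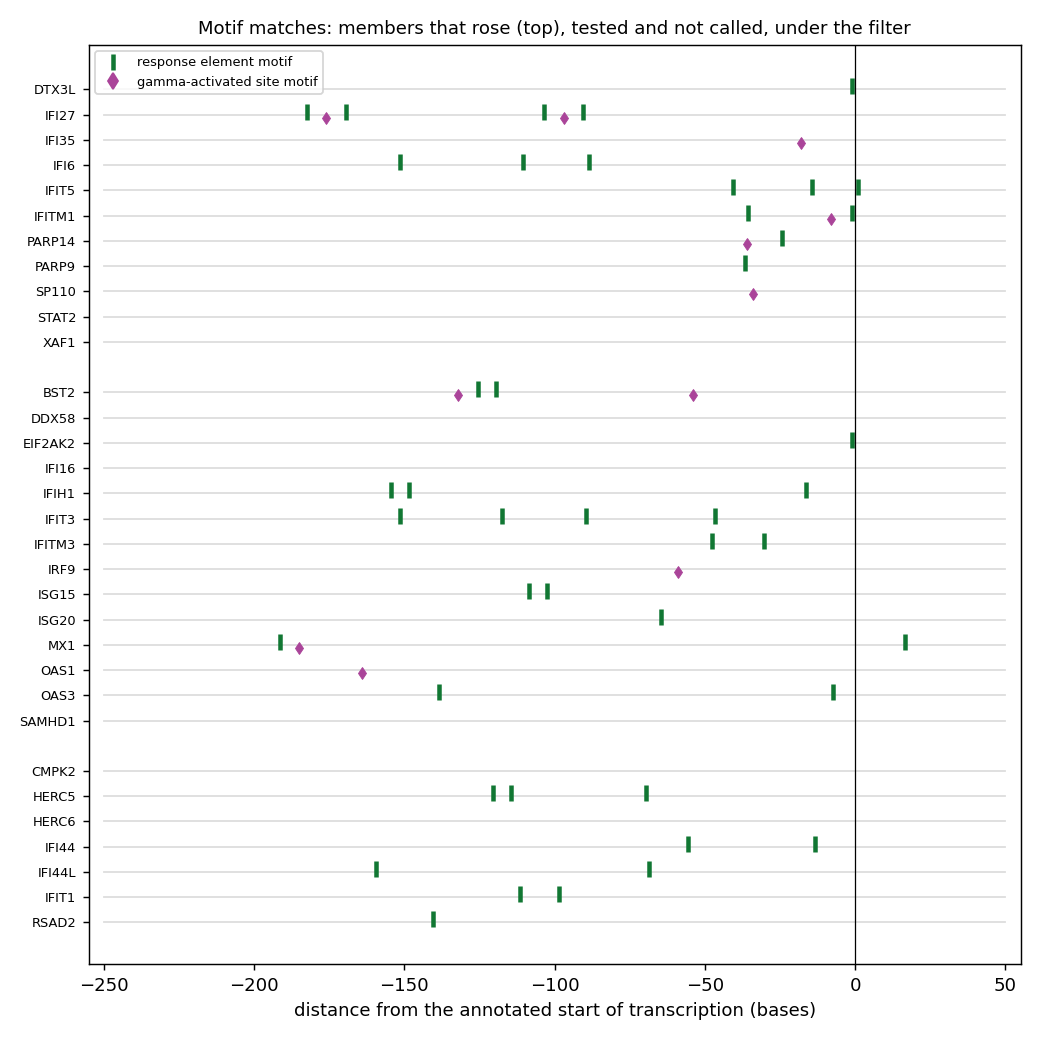
Position of motif matches (horizontal axis, bases from the annotated start of transcription at 0) in the promoters of 32 members (rows): the 11 that rose, then 14 tested and not called, then 7 under the abundance filter. Green bars mark the response element and purple diamonds the gamma-activated site; a member with more than 1 annotated start is drawn relative to each, so IFI27 shows its sites at a pair of distances. Matches are present in all 3 blocks: 7 of 11, 9 of 14 and 5 of 7 members hold the response element motif.

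Library depth ran from 1099.95 to 2033 megabases of aligned sequence. Levels below are in TPM, each transcript's length-normalised share of its library, summed per gene and scaled between libraries. WWTR1 itself was 2.35, 1.21 and 1.40 scaled TPM in the controls and 365, 138 and 145 in the TAZ libraries. All 10 plasma cell markers were above 1 TPM in every library, and their sum was 2442 to 3161 in the controls and 2857 to 3252 in the TAZ libraries, but most of this sum came from the abundant IGJ and XBP1. The median log2 difference of the 10 was -0.63, and 5 had every TAZ library below every control, beside 14.9% of all tested genes. SDC1, IRF4 and SLAMF7 fell (3 of 10), where 0.981% of all tested genes were called lower. IGJ went the other way, at 1166, 1224 and 1050 in the controls and 1698, 2132 and 1691 with TAZ, without being called. It was the 1 of 10 with every TAZ library above every control, beside 9.97% of all tested genes. Markers of plasmacytoid dendritic cells, which are strong interferon producers, summed to 0.631 to 1.93 in the controls and 0.738 to 1.82 in the TAZ libraries, with CLEC4C at 0. Myeloid markers summed to 3.45 to 5.69 and 1.62 to 2.53, with CD68 and S100A9 at 0 and CD14 lower, and T and NK cell markers to 1.003 to 1.86 and 1.59 to 2.17, with NKG7 at 0. Epithelial markers summed to 194 to 322 in the controls and 959 to 2295 in the TAZ libraries, but most of this sum came from KRT8. KRT8 and KRT18 rose (2 of 6, beside 2.23% of all tested genes), and KRT5, too low to be tested, was higher in each TAZ library. EPCAM had similar means of 53.3 ± 27.1 and 49.1 ± 5.91 (SD), but its controls spread from 22.5 to 73.7. CDH1 was lower in each TAZ library, at 52.2, 57.0 and 36.9 against 17.1, 28.4 and 30.1, without passing the test described below. Fibroblast markers summed to 2.09 to 3.01 and 34.4 to 41.8, with TAZ mostly from LUM, the 1 of 6 called higher. COL1A2 and COL3A1, too low to be tested, were higher in each TAZ library, while COL1A1, PDGFRA and PDGFRB overlapped between groups. The part of these marker changes in the results below was not tested. Whether separate cultures gave these libraries is not stated in the labels; the p-values therefore reflect only how far these samples spread, and that spread may be technical.

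Of the 41 members, 30 had a mean of at least 1 scaled TPM over the 6 libraries and were tested. In the fit over all 19259 tested genes (limma on log2(scaled TPM + 1), Benjamini-Hochberg adjusted p under 0.05), 11 members rose with TAZ and 0 fell, where 2.23% of all tested genes were called higher and 0.981% lower (3.21% in either direction). The 11 were PARP9, DTX3L, PARP14, IFI27, IFI6, IFI35, XAF1, IFITM1, IFIT5, SP110 and STAT2. By role, 0 of 4 sensors, 1 of 3 transcription factors and 10 of 23 tested effectors and others rose. The members were chosen with earlier results of these data known, so these counts beside the shares of all genes are descriptions. The median log2 difference of the 30 was 0.85 and 26 were above 0, beside a median of -0.06 over all tested genes, which became 0.17 without scaling between libraries. A filter on the mean lets in low genes that are high in 1 group, as it did for 4 of the 11 that had a control mean under 1 TPM. In bulk RNA, more cells expressing a gene and more RNA per cell cannot be told apart. The 41 summed to 373, 380 and 352 scaled TPM in the controls and to 803, 624 and 590 in the TAZ libraries, so the groups did not overlap. Without BST2, the most abundant member, the sums were 217, 225 and 214 against 628, 476 and 461. The largest rises in mean TPM among the 41 were those of IFI35, from 43.4 to 124, and STAT2, from 31.7 to 105, so the sums weigh these genes most. Control library 3, the shallowest, held the lowest control value for 8 of the 11 members that rose; with it left out 11 members rose, and with TAZ library 2 left out 8 did.

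**Figure D2:**
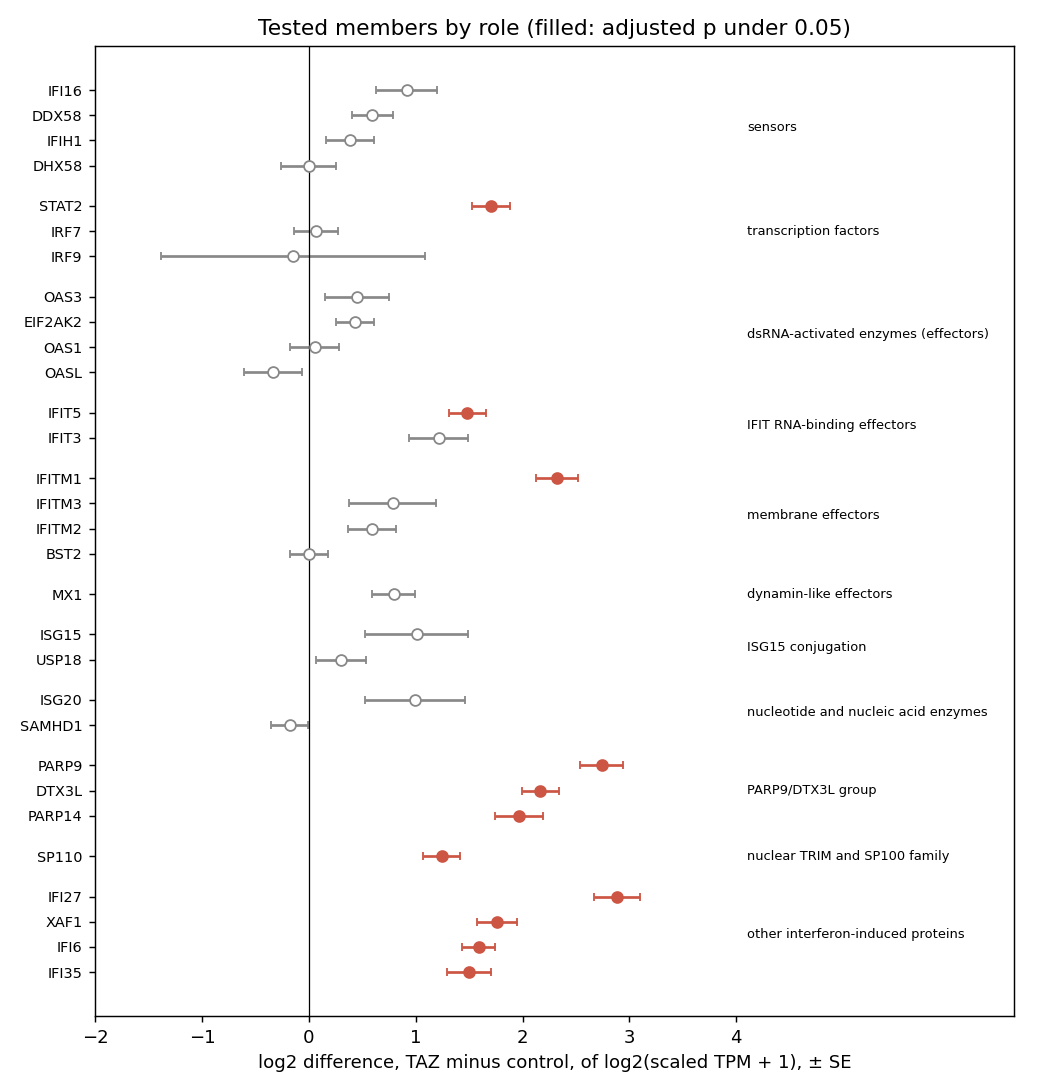
Log2 difference, TAZ minus control, of log2(scaled TPM + 1) with its standard error (horizontal axis) for the 30 tested members (rows), ordered by role; 3 libraries per group. Filled red points passed an adjusted p of 0.05. The 3 members of the PARP9/DTX3L group and 4 tested members of the last group all passed, while no sensor and no tested member of the dsRNA-activated enzymes did.

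The sensors did not pass the test. DDX58 encodes RIG-I, which recognises viral RNA with 5′ triphosphates; it stood at 0.859, 0.632 and 0.638 scaled TPM in the controls and 1.61, 1.37 and 1.76 with TAZ (log2 difference 0.59 ± 0.19 SE, limma adjusted p = 0.183). Its values were low throughout, and each TAZ library lay above each control. IFI16, a nuclear and cytosolic sensor of DNA, was 7.77, 17.2 and 13.4 against 22.2, 24.0 and 25.6 (0.91 ± 0.28, adjusted p = 0.174). Here too the groups did not overlap, with control library 1 well below the other controls. IFIH1, which encodes MDA5, a sensor of long double-stranded RNA, was 8.15, 8.00 and 5.03 against 7.95, 9.29 and 11.0 (0.38 ± 0.23, adjusted p = 0.419). Its ranges overlapped, as did those of DHX58, the related helicase LGP2, at 1.20, 0.910 and 0.923 against 1.41, 0.468 and 1.27 (adjusted p = 0.997).

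Among the transcription factors STAT2 rose. STAT2, the ISGF3 subunit specific to type I and III interferon signalling (chromosome 12, 56735381 to 56753939, hg19), stood at 33.4, 34.6 and 27.1 scaled TPM in the controls, and TAZ libraries 1, 2 and 3 held 117, 107 and 92.6. The means were 31.7 ± 4.02 and 105 ± 12.0 (SD, n = 3), 3.32-fold apart, on the log2 scale 1.70 ± 0.18 (limma adjusted p = 0.00421). The spread within either group was small beside the gap. Most of the STAT2 signal, between 66.6% and 84.0% in every library, was assigned to ENST00000556539.1, which covers the 3′ part of the gene. IRF7, which amplifies interferon production, was 0.881, 1.61 and 1.34 in the controls and 1.58, 1.33 and 1.20 in the TAZ libraries (0.07 ± 0.21, adjusted p = 0.89), with full overlap.

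IRF9, the DNA-binding subunit of ISGF3, gave 18.3, 8.87 and 9.93 scaled TPM in the controls and 47.7, 0.424 and 21.0 with TAZ (log2 difference -0.15 ± 1.24, limma adjusted p = 0.962). The TAZ libraries spanned more than the whole range of the controls, and TAZ library 2 decided the sign: without it the log2 difference was 1.35 (adjusted p = 0.367). A second annotated gene (ENSG00000259529.1) lies over IRF9 on the same strand, and held 0, 1.14 and 0.801 in the controls and 0, 11.5 and 8.86 in the TAZ libraries. TAZ library 2, the lowest in IRF9, was the highest in this overlapping gene. With both summed, a setting added after seeing the data, the log2 difference was 0.99 (adjusted p = 0.354). In TAZ library 3 too, more aligned sequence lay on the overlapping gene than on IRF9, at 30.8 against 9.23 kilobases. It was 5.52 against 6.54 kilobases in control library 2 and 2.08 against 3.56 in control library 3. The IRF9 level is therefore uncertain in these libraries as well as in TAZ library 2.

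PARP9, DTX3L and PARP14 lie together on chromosome 3, and all 3 rose. PARP9 (122246771 to 122283424, hg19) is an ADP-ribosyltransferase family protein that forms a complex with the ubiquitin ligase DTX3L (122283085 to 122294050). PARP9 was 0.783, 1.27 and 0.599 scaled TPM in the controls and 12.5, 11.6 and 10.3 in the TAZ libraries, with means of 0.885 ± 0.348 and 11.5 ± 1.11 (SD, n = 3) and a log2 change of 2.74 ± 0.20 (limma adjusted p = 0.00112). DTX3L was 1.83, 1.96 and 1.77 against 12.3, 13.5 and 9.89, with means of 1.85 ± 0.0982 and 11.9 ± 1.85 and a log2 difference of 2.17 ± 0.17 (adjusted p = 0.00178). In the TAZ libraries the pair reached nearly equal levels, and the lowest TAZ value lay well above the highest control for both. Their annotated spans overlap at their starts on opposite strands, and whether reads were assigned by strand is not given. PARP14 (122399465 to 122449687), a mono-ADP-ribosyltransferase that acts on STAT signalling, was 5.19, 5.80 and 3.23 against 20.0, 23.8 and 19.3, with means of 4.74 ± 1.34 and 21.1 ± 2.42 and a log2 difference of 1.96 ± 0.22 (adjusted p = 0.0063). The neighbour between them, PARP15, was at most 0.0253 in any library, and KPNA1 on the far side of PARP9 was 14.2 ± 0.456 and 15.0 ± 1.91 (adjusted p = 0.848). Within 250 kilobases of the 11 members that rose lay 124 tested genes outside the list; 2 of them rose (RBMS2 and IL23A, both beside STAT2) and 1 fell (SP100, beside SP110), which is near the 2.23% and 0.981% over all tested genes.

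The interferon-induced proteins IFI27, IFI6, IFI35 and XAF1 rose as well. IFI27 (chromosome 14, 94571182 to 94583033), a small mitochondrial and nuclear membrane protein, had the highest ratio of means of the 11. It stood at 0.311, 0.0928 and 0.0493 scaled TPM in the controls and rose to 8.03, 5.81 and 8.81 with TAZ, giving means of 0.151 ± 0.140 and 7.55 ± 1.55 (SD, n = 3) and a log2 change of 2.88 ± 0.21 (limma adjusted p = 0.00123). The controls were nearly silent: 0.664, 0.228 and 0.0648 kilobases of aligned sequence lay on IFI27 there, against 10.5, 5.62 and 4.57 kilobases with TAZ, so the size of the ratio rests on few reads. The transcript assigned also differed, with all of the TAZ library 3 signal on ENST00000555744.1 and 55.5% and 50.6% of that of TAZ libraries 1 and 2 on ENST00000553285.1.

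XAF1 (chromosome 17, 6658766 to 6678966), an antagonist of the apoptosis inhibitor XIAP, was 0.245, 0.0741 and 0.125 scaled TPM in the controls and 3.18, 2.88 and 2.61 with TAZ (log2 difference 1.76 ± 0.19, limma adjusted p = 0.00464). It was, like IFI27, close to 0 in every control, and its means were 0.148 ± 0.0876 and 2.89 ± 0.284. IFI6 (chromosome 1, 27992572 to 27998729), a membrane protein that opposes apoptosis and flavivirus replication, was 4.02, 4.95 and 4.60 against 16.3, 15.7 and 14.8 (1.59 ± 0.15, adjusted p = 0.00315). Its libraries were the most even of these genes, with means of 4.52 ± 0.468 and 15.6 ± 0.764. IFI35 (chromosome 17, 41158742 to 41166473), a leucine zipper protein that binds the STAT-associated factor NMI, was abundant already in the controls, at 41.3, 52.2 and 36.7 against 146, 118 and 109 (1.50 ± 0.20, adjusted p = 0.0127). The means, 43.4 ± 8.00 and 124 ± 19.2, were 2.86-fold apart, the lowest ratio of the 11. Leaving out control library 1 ended the call (adjusted p = 0.05003), and so did leaving out TAZ library 2 (0.0702). The transcript assigned differed as well: ENST00000415816.2 held 2.37% of the IFI35 signal in control library 1 and 60.5% to 99.8% in the other libraries. Control library 1 had 19.2 kilobases of aligned sequence on IFI35, against 51.8 and 24.6 in control libraries 2 and 3. IFI44 and IFI44L, the remaining members of this group, were under the filter.

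**Figure D3:**
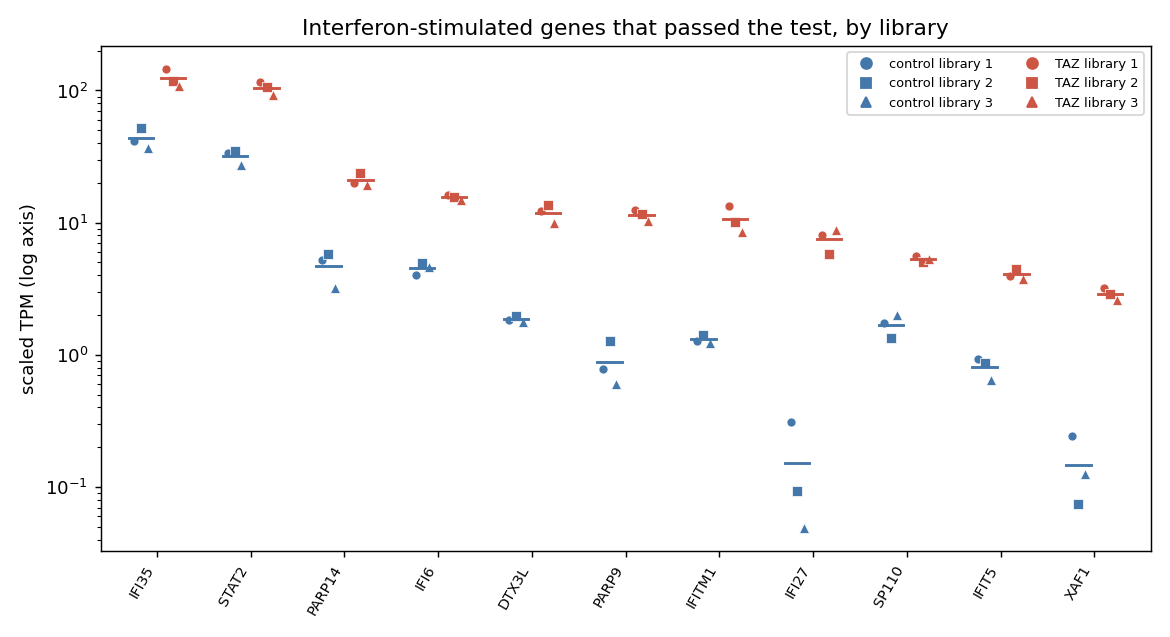
Scaled TPM (log axis) in each of the 6 libraries for the 11 members that rose, ordered by mean with TAZ; blue symbols are control libraries, red symbols TAZ libraries, and short lines group means. The red symbols lie above the blue ones in every gene, from IFI35 at over 100 TPM with TAZ to XAF1 at 2.61 to 3.18.

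Among the membrane effectors only IFITM1 passed the test. IFITM1 (chromosome 11, 313506 to 315272), which restricts fusion of enveloped viruses at the cell surface, was 1.27, 1.41 and 1.24 scaled TPM in the controls and 13.4, 10.1 and 8.57 in the TAZ libraries. The means were 1.31 ± 0.0933 and 10.7 ± 2.48 (SD, n = 3), 8.19-fold apart, a log2 change of 2.32 ± 0.20 (limma adjusted p = 0.00233). IFITM2, its endosomal relative, was 2.00, 1.38 and 2.61 against 4.19, 2.97 and 3.27, and IFITM3, also endosomal, 0.710, 0.517 and 0.143 against 3.38, 1.22 and 0.556 (adjusted p = 0.245 and 0.367). The IFITM2 groups did not overlap and the IFITM3 groups did. The 3 genes are paralogs and IFITM1 lies within the annotated span of IFITM2, so the split of reads among them is uncertain; IFITM1 was on a single transcript in all 6 libraries. BST2, tetherin, which holds budding virions at the surface and is a plasma cell antigen in myeloma, was by far the most abundant member, at 155, 155 and 137 against 175, 148 and 128. Its log2 difference was 0.00 ± 0.18 (adjusted p = 0.996).

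Of the IFIT proteins, which bind viral RNA 5′ ends and hinder its translation, IFIT5 rose. IFIT5 (chromosome 10, 91174343 to 91180758) was 0.923, 0.870 and 0.647 scaled TPM in the controls and 3.97, 4.48 and 3.74 in the TAZ libraries, with means of 0.813 ± 0.147 and 4.06 ± 0.379 (SD, n = 3) and a log2 change of 1.48 ± 0.17 (limma adjusted p = 0.00684). Every TAZ library was several-fold above every control. Without TAZ library 2 the call was lost (adjusted p = 0.0557). IFIT3, which stabilises IFIT1 on RNA, was 9.34, 6.26 and 4.03 against 17.1, 15.5 and 14.8 (1.21 ± 0.28, adjusted p = 0.0817). Its groups were also separate, but the controls spread over more than 2-fold, and it passed when control library 1 was left out (adjusted p = 0.0384). IFIT1 and IFIT2 were under the filter: IFIT1 was 0.274, 0.125 and 0.0509 against 1.86, 1.06 and 1.42, and IFIT2 0.450, 0.228 and 0.0126 against 0.790, 0.622 and 0.779. For both, each TAZ library lay above the highest control, at levels under 2 TPM. IFIT1, IFIT2 and IFIT3 lie within the annotated span of LIPA on the opposite strand, which was 3.33 ± 0.233 and 4.39 ± 1.19 (adjusted p = 0.518).

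SP110, a nuclear body protein of the SP100 family (chromosome 2, 231032009 to 231090444), was 1.74, 1.33 and 2.01 scaled TPM in the controls and 5.61, 5.07 and 5.34 in the TAZ libraries. The means were 1.69 ± 0.342 and 5.34 ± 0.270 (SD, n = 3) and the log2 difference 1.24 ± 0.18 (limma adjusted p = 0.0145). The groups were well apart, but of the 11 calls this was the one lost in the most settings run: leaving out control library 2 ended it (adjusted p = 0.0715), as did leaving out any one of the TAZ libraries (0.0557, 0.0825 and 0.0827). SP140, which overlaps SP110 on the opposite strand, was 0.104, 2.22 and 2.68 against 5.12, 8.18 and 7.95 (adjusted p = 0.13), and SP140L, further along the same strand, 2.85 ± 0.594 against 7.43 ± 1.78 (adjusted p = 0.0507). SP100, the founding member of the family and itself interferon-induced, fell at the same locus, from 6.24, 9.58 and 8.27 to 2.00, 2.67 and 1.68 (-1.53 ± 0.22, adjusted p = 0.0154). Unlike its TPM, the aligned sequence on SP100 overlapped between groups, at 5.75, 8.60 and 5.60 kilobases in the controls and 6.30, 6.20 and 4.70 with TAZ, and its call ended when control library 2 (0.0718), TAZ library 1 (0.0571) or TAZ library 3 (0.0767) was left out. For all 11 members that rose, by contrast, the aligned sequence was higher in each TAZ library than in each control. SP100 was named after its values were seen.

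Other classical effectors did not pass. ISG15, a ubiquitin-like modifier, was 15.0, 16.6 and 36.2 scaled TPM in the controls and 80.7, 32.1 and 30.5 with TAZ (log2 difference 1.01 ± 0.48, limma adjusted p = 0.331). Control library 3 lay above TAZ libraries 2 and 3, and without TAZ library 1 the difference was 0.56 (adjusted p = 0.493). USP18, the protease that removes ISG15, was 1.03 ± 0.150 against 1.54 ± 0.580 (0.30 ± 0.23, adjusted p = 0.529). MX1, a dynamin-like GTPase that traps viral nucleocapsids, was 0.876, 0.682 and 0.619 against 2.46, 1.99 and 1.58 (0.79 ± 0.20, adjusted p = 0.11), with separate groups at a low level. Of the enzymes activated by double-stranded RNA, EIF2AK2, the kinase PKR that stops translation, was 4.47 ± 0.388 against 6.42 ± 1.04 (SD, n = 3; 0.43 ± 0.18, adjusted p = 0.272). The 2′-5′-oligoadenylate synthetases, which activate RNase L, did not pass: OAS1 was 5.78 ± 1.64 against 5.94 ± 0.944, OAS3 1.01 ± 0.337 against 1.84 ± 0.999 and the related OASL 2.73 ± 0.876 against 1.96 ± 0.749 (adjusted p = 0.923, 0.467 and 0.553). SAMHD1, which depletes deoxynucleotides and so limits reverse transcription, was abundant at 32.0 ± 4.47 against 28.0 ± 2.42 (-0.18 ± 0.17, adjusted p = 0.605). ISG20, an RNA exonuclease, was 3.80, 11.8 and 16.1 against 22.7, 19.04 and 16.4 (0.99 ± 0.47, adjusted p = 0.325), with control library 3 just under the lowest TAZ library. Over the 19 tested members that did not pass, the log2 difference ran from -0.34 to 1.21 with a median of 0.43, and in 7 of them every TAZ library lay above every control, where 9.97% of all tested genes did so and 14.9% lay below. The test missing its threshold does not show that these genes stayed level.

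The 11 members under the filter reached at most 1.86 scaled TPM in any library. In 5 of the 11 every TAZ library lay above every control, beside 8.82% of all genes under the filter with a value above 0. In 1 of the 11, HERC5, every TAZ library lay below. The share of all genes under the filter lying below was not computed, so this count has no background beside it. Besides IFIT1 and IFIT2 the 5 were IFI44, a cytosolic protein of unclear action, MX2, the relative of MX1 active against lentiviral entry into the nucleus, and RSAD2, viperin, an enzyme that makes a chain-terminating nucleotide. IFI44 was 0.336, 0.499 and 0.0875 in the controls and 0.898, 0.835 and 0.953 with TAZ. MX2 was 0.0175, 0 and 0.0380 against 0.220, 0.152 and 0.176, and RSAD2 0, 0 and 0.0624 against 0.270, 0.138 and 0.144, so both remained near silence. HERC5, the ligase that attaches ISG15, was 0.825, 1.02 and 0.799 against 0.509, 0.525 and 0.765. The other 5 overlapped: OAS2 lay between 0.481 and 1.37, TRIM22 between 0.0320 and 0.361, CMPK2 between 0 and 0.119, HERC6 between 0 and 0.0924 and IFI44L between 0 and 0.0456. With no filter on low values none of the 11 passed the test; the members called higher were then 10 and SP110 was not among them (adjusted p = 0.0522).

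**Figure D4:**
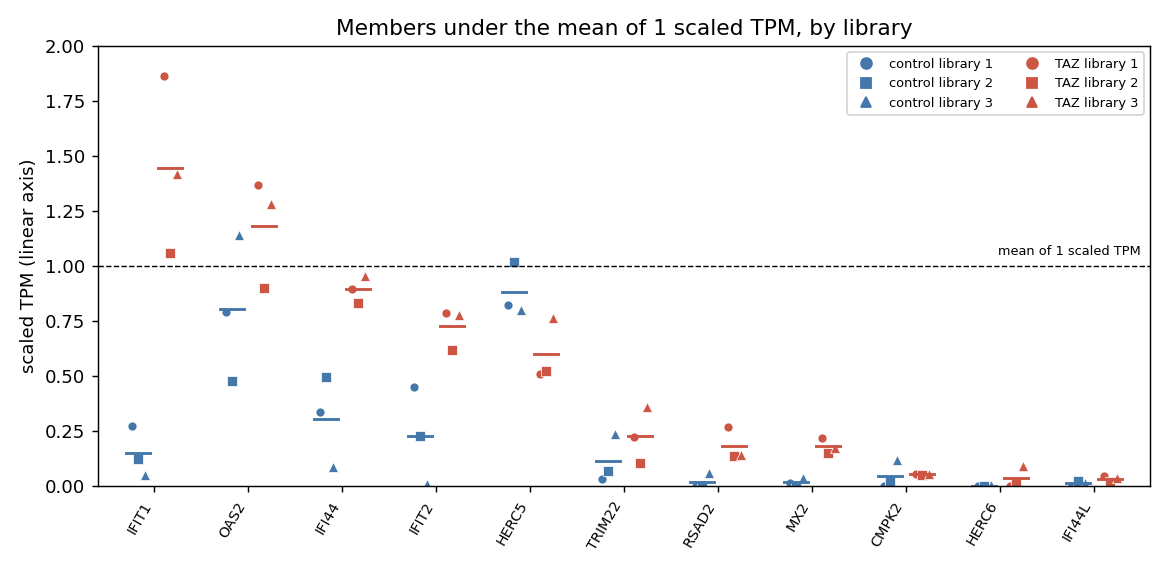
Scaled TPM (linear axis) in each of the 6 libraries for the 11 members that were not tested because their mean over libraries was under 1 TPM (dashed line); blue symbols are control libraries, red symbols TAZ libraries, and short lines group means. IFIT1 reached 1.86 in TAZ library 1, and HERC5 is the gene whose red symbols all lie below the blue ones.

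The other genes of the pathway were counted from lists set by function. Among the interferons IFNG alone was tested, and it reached the filter through the TAZ libraries: 0, 0.153 and 0.188 kilobases of aligned sequence lay on it in the controls. It was 0, 0.124 and 0.285 scaled TPM in the controls and 5.10, 4.24 and 5.36 with TAZ (2.38 ± 0.20, limma adjusted p = 0.00195). The 20 type I and type III interferon genes were all under the filter, and the highest value of any of them in any library was 0.467.

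The interferon receptor chains did not pass (limma): the log2 difference of scaled TPM plus 1 was -0.32 for IFNAR1, -0.07 for IFNAR2, 0.00 for IFNGR1, 0.26 for IFNGR2, 0.39 for IFNLR1 and 0.55 for IL10RB. IFNAR1 was lower in each TAZ library, at 14.7, 15.7 and 17.6 against 21.7, 20.1 and 18.7 (adjusted p = 0.338). The kinases JAK1, JAK2 and TYK2 had differences of -0.07, 0.43 and -0.52 and did not pass either, and TYK2 spread from 20.8 to 97.4 over the libraries.

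**Figure D5:**
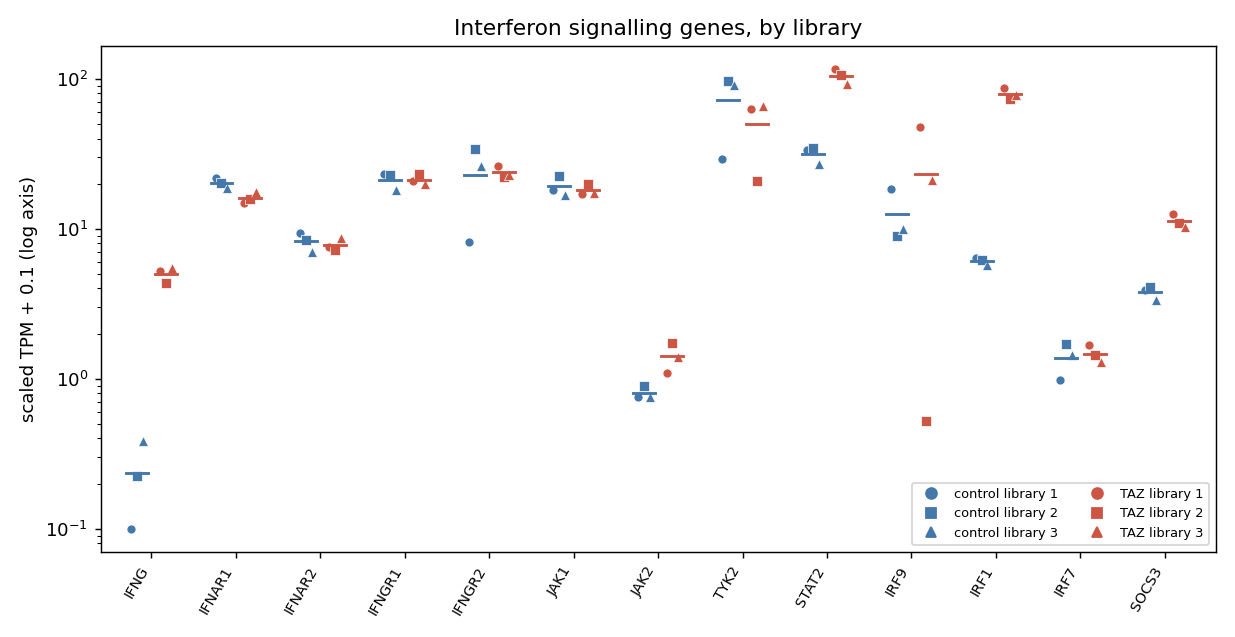
Scaled TPM plus 0.1 (log axis) in each of the 6 libraries for interferon gamma, the receptor chains, the kinases, the transcription factors of the response and the feedback inhibitor SOCS3; blue symbols are control libraries, red symbols TAZ libraries, and short lines group means. IFNG, STAT2, IRF1 and SOCS3 are separated between groups and passed the test, while TAZ library 2 stands far below the rest in IRF9.

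Of 24 genes of interferon induction or of nucleic acid sensing, 21 were tested, 2 rose and 0 fell, where 2.23% of all tested genes were higher and 0.981% lower. IRF1, a transcription factor that can bind response elements without ISGF3, was 6.28, 6.07 and 5.65 scaled TPM in the controls and 86.7, 73.2 and 77.9 with TAZ (3.52 ± 0.15, limma adjusted p = 2.27e-04). AIM2, an inflammasome sensor of cytosolic DNA that neighbours IFI16, was 1.44, 1.51 and 1.20 against 16.4, 14.8 and 11.8 (2.68 ± 0.18, adjusted p = 9.45e-04). Both were clearly separated between the groups. Of 19 negative regulators 1 rose and 0 fell, a single call beside 2.23% higher and 0.981% lower over all tested genes. SOCS3, an inhibitor of JAK kinases, was 3.82, 4.01 and 3.27 against 12.4, 10.9 and 10.1 (1.37 ± 0.16, adjusted p = 0.00726; 0.0522 without TAZ library 2).

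Among 45 further interferon-stimulated genes 39 were tested; 6 rose and 3 fell, beside 2.23% higher and 0.981% lower over all tested genes. GBP1, a guanylate-binding protein strongly induced by interferon gamma, was 0.843, 0.681 and 0.465 scaled TPM in the controls and 31.8, 25.4 and 16.5 with TAZ (3.90 ± 0.26, limma adjusted p = 9.22e-04). EPSTI1 went from a mean of 2.92 ± 0.473 to 24.1 ± 2.38 and the secreted glycoprotein LGALS3BP from 3.44 ± 0.286 to 57.2 ± 20.8 (SD, n = 3; adjusted p = 8.30e-04 and 0.00111). The ISG15-activating enzyme UBA7 and the ISG15-conjugating enzyme UBE2L6, named after their values were seen, rose from 0.384 ± 0.0831 to 2.35 ± 0.650 and from 130 ± 26.0 to 444 ± 148 (adjusted p = 0.0342 and 0.0246); ISG15 itself did not pass, and the difference between these genes was not tested. TRIM34 was listed at 0 in all controls and at 2.84, 2.65 and 3.58 with TAZ (adjusted p = 0.00335), but its read-through gene TRIM6-TRIM34 did the opposite, at 1.80, 1.18 and 1.54 against 0, 0 and 0, so the rise of TRIM34 cannot be told apart from a shift of reads between these overlapping genes. CXCL10, a chemokine induced by interferon gamma, fell from 26.3, 20.2 and 14.5 to 3.08, 3.06 and 3.31 (-2.33 ± 0.23, adjusted p = 0.00365). APOBEC3B, a cytidine deaminase named after its values were seen, fell from 57.6 ± 11.0 to 13.5 ± 2.77 (adjusted p = 0.00567), the other fall being SP100.

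Read against the promoters, the response element motif was in 7 of the 11 members that rose, in 9 of 14 tested and not called, and in 5 of 7 that were not tested. The gamma-activated site motif was in 5 of the 11 (IFI27, IFITM1, PARP14, IFI35 and SP110), in 4 of the 14 and in 0 of the 7. These counts are descriptions without a test. STAT2 and XAF1 rose without a match to either motif in the window.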

How the data were processed

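The submitters' processing notes name STAR 2.3.0, Bowtie2 2.0.0 and StringTie 1.3.3b for alignment and quantification, and hg19 as the genome. The deposited values are coverage, FPKM and TPM for 195984 transcripts, estimated per library on a supplied annotation, per the file headers. Strand use and the sharing of sequencing chips are not given. Deposited TPM was summed per gene and divided by a factor per library, the median ratio to the geometric mean over 28148 genes above 0 in every library (0.873 to 1.23). The test was limma 3.58.1 (R 4.3.3; robust eBayes with a trend; two-sided), TAZ against control, on log2(scaled TPM + 1) for 19259 genes with a mean of at least 1 scaled TPM, with Benjamini-Hochberg adjustment over all of them. This scale understates changes of low genes. Depth in aligned bases was recovered from deposited coverage and FPKM. The method was tested on simulated data in which only more abundant genes were changed, so that run does not cover calls of low genes. Members and gene lists were chosen with earlier results of these data known. Named in full were members that passed, members with a log2 difference of at least 1 in size, sensors and transcription factors, and up to 5 passing genes of each other list. 1 item is not reported here.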

Additional observations from a re-analysis of the deposited data

How the results depend on the processing

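The number of the 41 members that rose was 10 or 11 under no scaling, upper quartile scaling, pseudocounts of 0.1 and 5, no filter, FPKM in place of TPM, limma without trend and robust, and a filter on unscaled TPM (added after seeing the data), and 0 fell in any setting. It was 7 with a filter at a mean of 5 TPM, which left out IFIT5, SP110, IFI27 and XAF1, and 8 to 11 with 1 library left out. STAT2, IFITM1, PARP9, PARP14, DTX3L and IFI6 were called in all 16 alternatives, and IFI27 in all 15 in which it was tested. Replicate numbers are shared between the groups, and same-numbered libraries did not deviate together over all genes (correlations 0.00, -0.03 and -0.06). With 3 libraries a group this cannot show whether they shared a culture or a chip, which the labels do not give. With a replicate block 7 members rose (not IFIT5, SP110, IFI35 or XAF1), and over all genes 197 rose and 34 fell. Over all genes, 430 rose and 189 fell, 216 to 509 and 53 to 261 with 1 library left out (both lowest without TAZ library 2); 85 fell without scaling and 62 without a filter. Signs turned for genes that were never called, and the cause was not tested: DHX58 (0.12 without scaling, 0.048 with upper quartile scaling, 0.0064 with a pseudocount of 5, -0.039 to 0.22 with 1 library left out); IRF7 (-0.064 to 0.17 with 1 left out); IRF9 (0.040 without scaling, 0.21 with a pseudocount of 5, 0.018 with FPKM, 0.99 summed with its overlapping gene, -1.20 to 1.35 with 1 left out); IFNAR2 (0.16 without scaling, 0.021 with upper quartile scaling, -0.18 to 0.016 with 1 left out); IFNGR1 (-0.11 to 0.067 with 1 left out); IFNGR2 (-0.32 to 0.65 with 1 left out); JAK1 (0.18 without scaling, 0.024 with upper quartile scaling, -0.17 to 0.048 with 1 left out); and TYK2 (-1.07 to 0.0052 with 1 left out). With a median SE of 0.24 on the log2 scale over all tested genes, small differences were not resolved by 3 libraries a group.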
